A study of Homo sapiens with 2 samples.

Results

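The genes described here are the WNT ligands, their receptors and co-receptors, and the inhibitors that act on the ligands or on the receptors. They were picked by gene symbol from the gene table of 1 RNA-seq series, with no value in the rule, although earlier results of these data were known: every symbol of the WNT, FZD, SFRP, DKK and LGR families in the ranges WNT1 to WNT16, FZD1 to FZD10, SFRP1 to SFRP5, DKK1 to DKK4 and LGR4 to LGR6, together with LRP5, LRP6, AXIN2, RNF43, ZNRF3 and NKD1. This gave 46 of the 27685 listed genes: 19 ligands, 10 Frizzled receptors, 2 LRP co-receptors, 3 LGR receptors, 4 SFRP and 4 DKK inhibitors, and 4 feedback inhibitors. The series held 1 library of H2087 cells and 1 library of H596 cells, both untreated, both labelled as lung adenocarcinoma and both grown in the same RPMI medium with serum. Both are established cell lines, each sampled here once. In the study, RNA-seq of H2087 served to find highly expressed genes near variants that lie under histone marks, and a purpose for H596 is not given in the sources used here.

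WNT proteins are secreted, lipid-modified ligands that bind a Frizzled receptor. When an LRP co-receptor joins the complex, the destruction complex that marks beta-catenin for degradation is held back, and beta-catenin then enters the nucleus and acts with TCF/LEF factors. Other ligand and receptor pairs act without beta-catenin, on cell polarity and movement. In the lung, WNT signalling takes part in the growth of the airways and in the upkeep of alveolar stem cells.

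Levels are given as FPKM, the fragments per kilobase of transcript and per unit of library size, which can be compared between genes because length is divided out. Where values are given as a pair without naming the library, that of H2087 comes first. Each FPKM has a 95% interval (Wilson) from the gene's estimated count. The estimated counts summed to 46961500 in H2087 and 55387847 in H596, of which the 46 genes took 0.0915% and 0.148%. A count of 0 allows up to 3 counts, which for these genes was an FPKM of 0.00454 to 0.0765 in H2087 and 0.00383 to 0.0646 in H596. Intervals and limits cover counting error only, and they are too narrow if both mates of a pair were counted. With 1 library per cell line no value has a replicate check, and no test between the cell lines was made. In these bulk samples, fewer cells of a type and less RNA per cell cannot be told apart.

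The label of H2087 was matched by most of its markers, while in H596 no lung marker of the list reached an FPKM of 1. Of the 10 lung adenocarcinoma and epithelial markers, 8 reached an FPKM of 1 in H2087 and 5 did in H596. Those 5 were the general epithelial genes KRT7, KRT8, KRT18, EPCAM and CDH1. NKX2-1, the lung lineage transcription factor, had 110 FPKM in H2087 and 0.508 in H596, NAPSA had 22.0 and 0.0645 FPKM, and SLC34A2 11.3 and 0 FPKM, while SFTPB and SFTPC were near 0 in both. Of the 6 squamous and basal markers, 2 reached 1 FPKM in H2087 and 6 in H596, with sums of 40.8 and 307. TP63 had 0.183 FPKM in H2087 and 55.2 in H596, and KRT5 0 and 106 FPKM. Of the 8 stromal markers, 2 reached 1 FPKM in H2087 and 1 in H596, with sums of 56.3 and 10.7, COL1A2 at 0 in both and VIM and DCN at 0 in one each. Of the 6 endothelial and blood cell markers only CD68 reached an FPKM of 1, in both libraries, and PTPRC and CD3E had 0 counts in both. SOX2, with 39.1 and 56.5 FPKM, made up most of the H2087 sum and was not 2-fold different. KRT14 had 0 and 1.33 FPKM and did not pass the filter used below, and the other 4 squamous markers were at least 2-fold higher in H596, as are many genes described below. Their part in those differences was not tested.

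An FPKM of 1 was reached in H2087 by 17 of the 46 genes (37.0%), where 45.3% of all listed genes did. In H596 the number was 20 (43.5%), against 45.5% of all listed genes. The sets overlapped in 13 genes. The other 4 genes reached this level in H2087 alone and 7 in H596 alone, and 22 reached it in neither. Counts of 0 were found for 14 genes in H2087 and 15 in H596. In 9 genes, WNT2, WNT8A, WNT9B, FZD10, LGR5, SFRP1, SFRP2, SFRP5 and DKK4, the count was 0 in both. The shares at an FPKM of 1 were near those of all genes, while the counts of 0 were not set against all genes. The genes at this level in H2087 alone were WNT8B, WNT10B, FZD7 and DKK3, and those in H596 alone were 6 ligands and LGR6.

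**Figure D1:**
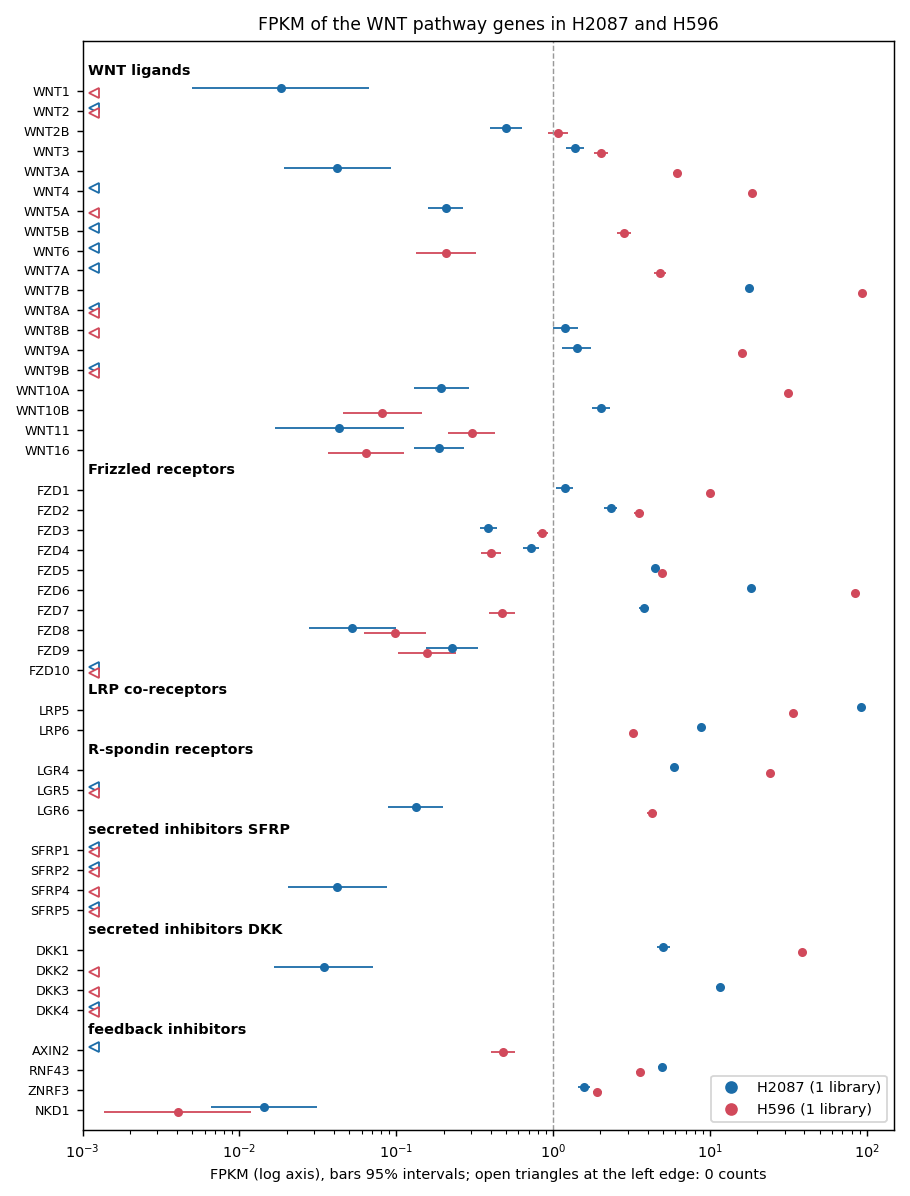
FPKM (log axis) of each of the 46 genes, grouped by role, in the H2087 library (blue) and the H596 library (red); bars are 95% Wilson intervals for counting error, open triangles at the left edge stand for 0 counts and the dashed line is an FPKM of 1. The ligands to the right of the line number 5 in H2087 and 9 in H596, while both LRP co-receptors lie further right in H2087.

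To compare the libraries, log2(FPKM + 1) in H2087 was subtracted from that in H596 wherever the mean FPKM was 1 or more, and a difference of 1 or more in size was called 2-fold. Adding 1 makes the difference of a low gene smaller than its plain FPKM ratio, so the ratio is given beside it. Of the 46 genes, 22 passed the filter. Among them 12 (54.5%) were at least 2-fold higher in H596, where the share over all 13048 genes compared was 18.2%. At least 2-fold lower in H596 were 5 (22.7%), against 14.2% of all genes compared, and 5 were neither. The median difference of the 22 genes was 1.89, and that of all genes compared was 0.12. In TPM, a rescaling by 1 factor per library under which 26 genes passed the filter, these medians were 0.77 and 0.29, and over all 46 genes with no filter the median was 0. Of the 17 calls, 8 were fixed by the filter: a gene with a low value of at most 0.333 FPKM in one library passes only if the other is high enough to be called. They were WNT3A, WNT4, WNT5B, WNT7A, WNT10A and LGR6, all higher in H596, and WNT10B and DKK3, both lower. Over all 13048 genes compared, 878 calls were fixed in this way, a smaller part. Outside the fixed calls, 6 of 14 genes (42.9%) were higher in H596 and 3 (21.4%) lower. The shares over the 12170 genes left among all compared were 16.1% and 11.4%. The counts over the 22 genes therefore describe them only.

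**Figure D2:**
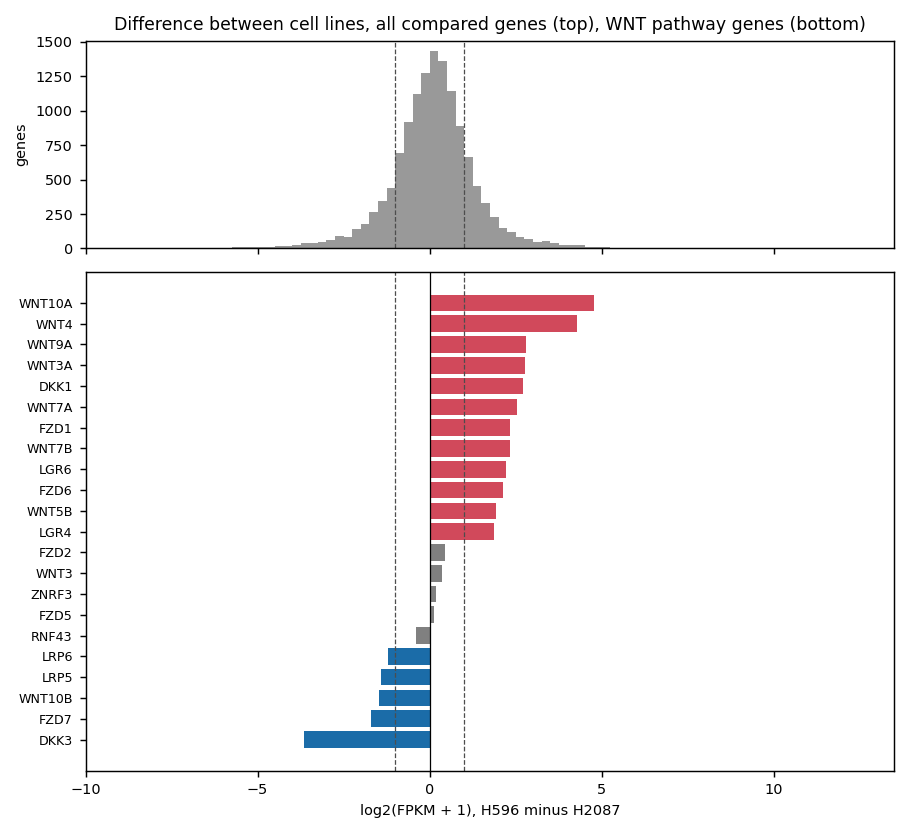
Difference in log2(FPKM + 1) (H596 minus H2087) as a histogram over all 13048 genes compared (top, number of genes) and as a bar for each of the 22 WNT pathway genes compared (bottom); dashed lines mark a difference of 1 in size. The 12 red bars reach from 1.86 (LGR4) to 4.77 (WNT10A), and the 5 blue bars from -1.21 (LRP6) to -3.65 (DKK3).

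The ligand group had the largest gap in summed FPKM between the cell lines. Their summed FPKM was 25.0 in H2087 and 177 in H596, which is 7.08 times higher in H596. Of the 19 ligands, 5 reached an FPKM of 1 in H2087 and 9 did in H596, with WNT3, WNT7B and WNT9A in both sets. Of the 9 that passed the filter, 7 were higher in H596, 1 was lower and 1 was neither. Apart from WNT7B, WNT9A and WNT3, each of these calls was fixed by the filter.

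WNT7B (gene 7477, chromosome 22 of hg19, 46316248 to 46373008), a ligand that airway epithelium makes during lung development, was the most abundant ligand in both cell lines. Its FPKM was 17.8 (95% interval, 17.2 to 18.4) in H2087 and 93.5 (92.2 to 94.8) in H596, from 3339 and 20755 counts. This ratio was 5.25 (5.06 to 5.45, exact interval from the counts). WNT7B made up 71.2% of the summed ligand FPKM in H2087 and 52.8% in H596, so it took a smaller share of a larger sum. Among all listed genes it ranked 4150 in H2087 and 694 in H596.

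Most of the rest of the H596 sum came from ligands that were low or at 0 in H2087. WNT10A (chromosome 2, 219745255 to 219758651), known for its role in teeth, hair and sweat glands, had 0.193 FPKM from 23 counts in H2087 and 31.7 (30.7 to 32.6) from 4268 counts in H596, a ratio of 164 (109 to 259). WNT4 (chromosome 1, 22443798 to 22469519), which acts in kidney and female reproductive tract development, had 0 counts in H2087 and an FPKM of 18.4 (17.9 to 19.0) from 4085 counts in H596. Against the limit of 3 counts it was at least 1150-fold higher in H596. WNT9A, a ligand of developing joints, had 1.41 FPKM in H2087 and 15.9 in H596, a ratio of 11.3 (9.01 to 14.2). WNT10A, WNT4 and WNT9A made up 17.9%, 10.4% and 8.98% of the ligand sum in H596.

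A further 3 ligands reached an FPKM between 2 and 7 in H596 alone. WNT3A, the ligand most used to activate beta-catenin in culture, had 6 counts in H2087 and 1040 in H596, or an FPKM of 0.0421 and 6.16 (5.80 to 6.55), a ratio of 146 (67.0 to 399.7). WNT7A, a limb patterning ligand close in sequence to WNT7B, had 0 counts in H2087 and 470 in H596, where its FPKM was 4.82 (4.41 to 5.28). It was at least 132-fold higher in H596. WNT5B had 0 counts in H2087 and 355 in H596, an FPKM of 2.81 (2.54 to 3.12), and was at least 100.0-fold higher there. All 355 counts were assigned to NM_032642, the transcript with the more downstream of the 2 listed starts.

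Of the ligands that reached an FPKM of 1, WNT10B and WNT8B were higher in H2087. WNT10B, a ligand that restrains fat cell formation, had 2.01 FPKM (1.77 to 2.29) from 229 counts in H2087 and 0.0814 from 11 counts in H596, and was 24.8 times higher in H2087 (13.6 to 50.3). WNT8B, known from the developing forebrain, had 115 counts in H2087 and 0 in H596. Its FPKM in H2087 was 1.20 (0.999 to 1.44), at least 45.3 times that of the limit in H596, and with a mean FPKM under 1 it stayed outside the 22 genes. WNT3 had an FPKM of 1.37 and 2.02, a difference of 0.35 on the log2 scale, and WNT2B 0.504 and 1.07 FPKM, a ratio of 2.12 (1.60 to 2.85).

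The remaining ligands were low or absent. WNT5A, the main ligand of signalling without beta-catenin, had 61 counts in H2087 and 0 in H596, the reverse of its relative WNT5B, although its FPKM was only 0.206. WNT6 had 0 counts in H2087 and 20 in H596, WNT11 had 4 and 33, WNT16 had 28 and 12, and WNT1 had 2 and 0. WNT5A was thus at least 24.1 times and WNT16 2.94 times (1.45 to 6.35) higher in H2087, both at low levels. None of these 5 reached an FPKM of 0.5 in either library.

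Over all listed genes, 0.874% had 0 counts in H2087 and an FPKM of at least 1 in H596, and 1.01% had the reverse. Among the 46 genes 3 (6.52%) had the first pattern, WNT4, WNT5B and WNT7A, and 2 (4.35%), WNT8B and DKK3, the second. The reference sequences before the starts of the 4 ligands are shown here because these genes had 0 counts in one library and an FPKM of at least 1 in the other. WNT8B passed that level only narrowly, with an FPKM of 1.20 in H2087. Each is 150 bases of GRCh37 on the strand of the gene, 5′ to 3′, with CG dinucleotides in capitals, and was placed so that it overlaps no annotated exon of its gene. WNT4 lies on the minus strand (chr1:22469591-22469740, ending 71 bases before the listed transcript), as does WNT7A (chr3:13921619-13921768, ending at it). WNT5B (chr12:1738247-1738396, ending 15 bases before NM_032642) and WNT8B (chr10:102222616-102222765, ending 46 bases before the transcript) lie on the plus strand.
WNT4: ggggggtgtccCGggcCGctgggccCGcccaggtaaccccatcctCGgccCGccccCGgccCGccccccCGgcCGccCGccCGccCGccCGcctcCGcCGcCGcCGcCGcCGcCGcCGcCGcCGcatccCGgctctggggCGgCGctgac
WNT7A: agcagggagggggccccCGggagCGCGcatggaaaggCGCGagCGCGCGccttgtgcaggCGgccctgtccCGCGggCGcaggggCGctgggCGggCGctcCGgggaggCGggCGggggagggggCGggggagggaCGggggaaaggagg
WNT5B: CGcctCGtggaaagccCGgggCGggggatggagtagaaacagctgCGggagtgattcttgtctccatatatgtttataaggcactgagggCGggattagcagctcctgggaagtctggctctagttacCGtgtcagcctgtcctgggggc
WNT8B: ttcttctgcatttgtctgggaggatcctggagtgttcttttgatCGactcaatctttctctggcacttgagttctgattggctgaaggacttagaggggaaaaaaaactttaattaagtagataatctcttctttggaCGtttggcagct

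These windows differed widely in base composition. The WNT4 window holds 26 CG dinucleotides and the WNT7A window 20, with a GC content of 88.7% and 82.0%. The WNT5B window holds 7 and the WNT8B window 2, with a GC content of 58.0% and 40.7%. A CG-rich start was therefore shared by only some of the ligands with this pattern.

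**Figure D3:**
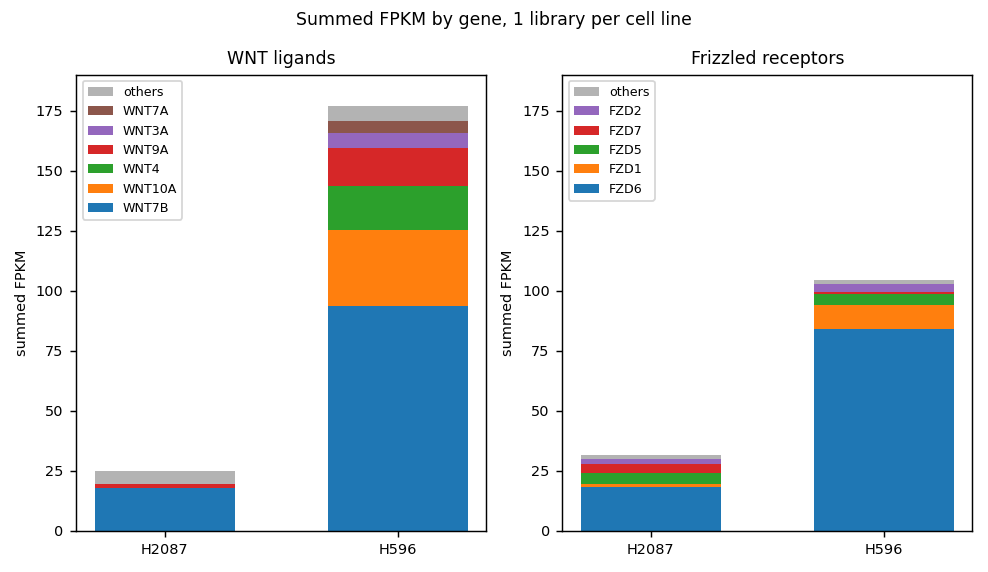
Summed FPKM of the 19 WNT ligands (left) and the 10 Frizzled receptors (right) in each library, stacked by gene, with the genes of lower level pooled as others; there is 1 library per cell line and no error bar. The ligand bar reaches 25.0 in H2087 and 177 in H596, the receptor bar 31.4 and 104, and WNT7B and FZD6 are the largest blocks in both libraries.

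Frizzled receptors, the seven-pass membrane proteins that bind the ligands, were led by FZD6 in both cell lines. Their summed FPKM was 31.4 in H2087 and 104 in H596, 3.32 times higher in H596. FZD6, known for tissue polarity in skin and hair, had 18.2 FPKM (17.6 to 18.9) in H2087 and 83.9 (82.6 to 85.1) in H596, a ratio of 4.60 (4.43 to 4.78). Its share of the Frizzled sum was 58.0% and 80.4%. The excess of the receptor sum in H596 was therefore mostly that of 1 gene.

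The other Frizzled receptors differed in both directions. FZD1 had 1.19 FPKM (1.05 to 1.34) in H2087 and 10.0 (9.62 to 10.4) in H596, a ratio of 8.44 (7.41 to 9.66). FZD7, a receptor of stem cells in the gut, had 3.80 FPKM (3.53 to 4.10) and 0.469 (0.387 to 0.569), which was 8.10 times higher in H2087 (6.58 to 10.1). FZD7 followed FZD6 and FZD5 in H2087, while in H596 FZD1 took second place. FZD5 was the most even, with an FPKM of 4.47 and 4.92, a ratio of 1.10 (1.03 to 1.18), and FZD2 had 2.32 and 3.51 FPKM, a ratio of 1.51. Of the 10 receptors 5 reached 1 FPKM in H2087 and 4 of them also in H596.

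The 5 remaining receptors stayed below an FPKM of 1 in both libraries. FZD3 had 0.387 FPKM in H2087 and 0.853 in H596, FZD8 0.0525 and 0.0977 FPKM, and FZD9 0.228 and 0.157 FPKM. FZD10 had 0 counts in both. FZD4, which also binds Norrin, had an FPKM of 0.723 and 0.403. It shares 7229 bases on chromosome 11 with PRSS23 on the other strand, which had an FPKM of 9.92 and 41.0. The kit kept the strand, but whether the counting used it is not stated, so the FZD4 value is uncertain.

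Both LRP co-receptors, which are needed for the beta-catenin branch, were at least 2-fold higher in H2087. LRP5 (chromosome 11, 68080077 to 68216743) had 92.0 FPKM (90.8 to 93.2) in H2087 and 33.8 (33.2 to 34.5) in H596, and was 2.72 times higher in H2087 (2.66 to 2.79). LRP6 had 8.81 FPKM (8.55 to 9.08) and 3.25 (3.10 to 3.40), 2.71 times higher in H2087 (2.57 to 2.87). Both co-receptors thus differed by nearly the same factor, and LRP5 exceeded LRP6 10.4 times in either library. LRP5 had the highest FPKM of the 46 genes in H2087, where it ranked 780 among all genes, and the fourth highest in H596, where it ranked 2337.

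LGR receptors bind R-spondins and thereby protect Frizzled receptors from removal. LGR4 (chromosome 11, 27387508 to 27494322), the broadly expressed member, had 5.90 FPKM (5.61 to 6.21) in H2087 and 24.0 (23.5 to 24.6) in H596, a ratio of 4.07 (3.85 to 4.31). LGR6 had 0.133 FPKM from 23 counts and 4.27 (3.99 to 4.57) from 839 counts, a ratio of 32.1 (21.2 to 50.9). LGR5, the marker of intestinal stem cells, had 0 counts in both libraries. LGR4 held 97.8% of the LGR sum in H2087 and 84.9% in H596, so LGR6 gained in share.

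The R-spondins themselves, the ligands of these receptors, were at 0 counts in both libraries for RSPO1, RSPO2 and RSPO3. RSPO4 had 673 counts and 5.31 FPKM in H2087 and 0 counts in H596, and was at least 272-fold higher in H2087. The receptors were therefore more abundant in the library in which no R-spondin was detected at this depth.

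Secreted inhibitors were few. SFRP proteins, which bind WNT ligands outside the cell, were absent apart from 7 counts of SFRP4 in H2087: SFRP1, SFRP2 and SFRP5 had 0 counts in both libraries. Of the DKK family, DKK1 and DKK3 had an FPKM above 1 in at least one library. DKK2 had 7 counts in H2087 and 0 in H596, and DKK4 had 0 in both.

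The pair of expressed DKK genes differed in opposite directions. DKK1 (chromosome 10, 54074041 to 54077417), which binds LRP5 and LRP6 and blocks the co-receptor step, had 5.05 FPKM (4.60 to 5.55) in H2087 and 38.7 (37.6 to 40.0) in H596, a ratio of 7.67 (6.94 to 8.48). DKK3 (chromosome 11, 11984543 to 12030917), the divergent member of the family, had 11.6 FPKM (11.0 to 12.2) from 1524 counts in H2087 and 0 counts in H596. It was at least 601-fold higher in H2087. H2087 thus had both genes, with DKK3 making up 69.5% of the DKK sum, and H596 had DKK1 alone.

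The 150 bases before the DKK3 transcript (GRCh37, minus strand, chr11:12030918-12031067) and before the DKK1 transcript (plus strand, chr10:54073891-54074040) are shown for this pair. In the first, CG dinucleotides are in capitals. In the second, capitals mark the letters CTTTGA or their reverse complement TCAAAG, the core of the TCF/LEF motif.
DKK3: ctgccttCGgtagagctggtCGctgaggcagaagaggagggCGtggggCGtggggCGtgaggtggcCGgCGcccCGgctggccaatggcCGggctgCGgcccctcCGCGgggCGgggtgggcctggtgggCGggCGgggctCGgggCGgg
DKK1: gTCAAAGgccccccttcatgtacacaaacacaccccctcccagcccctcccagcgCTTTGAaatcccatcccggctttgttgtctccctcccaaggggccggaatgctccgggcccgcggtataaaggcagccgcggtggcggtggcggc

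The DKK3 window holds 17 CG dinucleotides at a GC content of 80.0%, so the gene without counts in H596 has a CG-rich start, as WNT4 and WNT7A do. In the DKK1 window the motif occurs once on each strand, 149 to 144 and 95 to 90 bases before the transcript. An exon of PRKG1-AS1 is annotated in the DKK1 window. The motif, searched on both strands, was present in the 250 bases before the start of 10.5% of 23517 genes. Among the 46 genes it was present in 2, DKK1 and NKD1. A match of these letters is not a measured site. Over the same 250 bases the 46 genes had a median of 25.5 CG dinucleotides and 72.4% GC, and all genes 13 and 59.2%. The median number was 27.5 for the 24 genes that reached an FPKM of 1 in either library and 24.5 for the other 22, a small gap beside that to all genes.

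Feedback inhibitors are switched on by the pathway and restrain it. RNF43 and ZNRF3, the ubiquitin ligases that remove Frizzled receptors from the cell surface, were expressed in both cell lines at similar levels. RNF43 had 4.95 FPKM (4.69 to 5.22) in H2087 and 3.56 (3.36 to 3.77) in H596, 1.39 times higher in H2087. ZNRF3 had 1.57 and 1.92 FPKM, a ratio of 1.22 (1.09 to 1.37). AXIN2, a scaffold of the destruction complex and the most used target gene of beta-catenin, had 0 counts in H2087 and 115 in H596. Its FPKM in H596 was 0.478 (0.399 to 0.574), at least 32.4 times the limit in H2087 but below an FPKM of 1. NKD1, which binds Dishevelled, had 6 counts in H2087 and 3 in H596. Neither AXIN2 nor NKD1 passed the filter, so the feedback genes with a clear level were RNF43 and ZNRF3, neither of which differed 2-fold.

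Ordered by FPKM, the 46 genes began in H2087 with LRP5, FZD6, WNT7B, DKK3, LRP6 and LGR4. The intervals of FZD6 and WNT7B overlapped, and so did those of DKK1, RNF43 and FZD5, which followed LGR4. In H596 the order was WNT7B, FZD6, DKK1, LRP5, WNT10A, LGR4, WNT4, WNT9A, FZD1 and WNT3A, with no overlap between neighbours. Below them FZD5, WNT7A and LGR6 were not separated step by step beyond counting error, nor were RNF43, FZD2, LRP6 and WNT5B. A co-receptor thus headed the list in H2087 and a ligand in H596.

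Transcripts were looked at for the 4 genes with several listed transcripts and an FPKM of at least 5. In FZD6, NM_003506 had 6.66 FPKM in H2087 and 73.7 in H596, which is 36.5% and 87.9% of the gene. The other 4 FZD6 transcripts ranged from 1.29 to 3.56 in H2087 and from 0.729 to 6.22 in H596. The higher FZD6 level in H596 was thus carried by 1 transcript, and 3 others had lower values there. In LRP5, NM_002335 held 96.0% and 96.3% of the gene, and in LGR4, NM_018490 held 63.9% and 72.4%. In DKK3, NM_013253 had an FPKM of 10.1 in H2087, or 87.4% of the gene, and all 4 transcripts had 0 counts in H596. The division of reads among transcripts that share exons is an estimate with an error of its own. RNF43 was added after its values were seen: NM_001305544 had 1.53 FPKM in H2087 and 0 in H596, whereas NM_017763 had 2.77 and 3.14 FPKM.

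**Figure D4:**
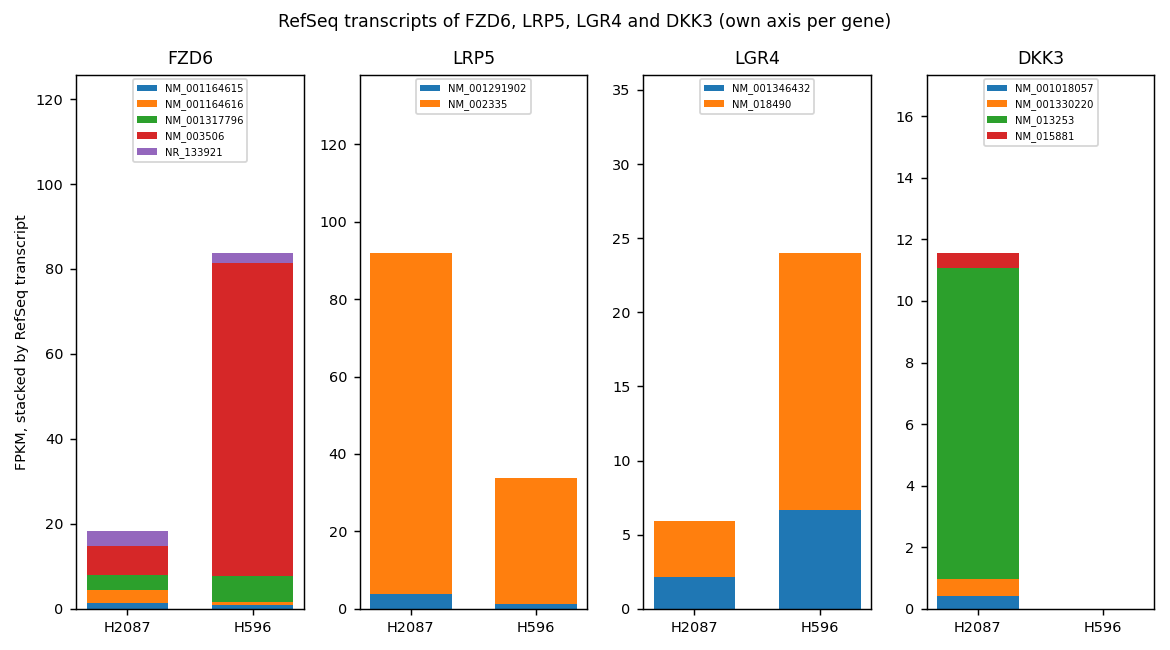
FPKM of the RefSeq transcripts of FZD6, LRP5, LGR4 and DKK3, stacked per library, with an axis of its own for each gene and no error bar. NM_003506 fills most of the H596 bar of FZD6 (73.7 of 83.9) but a smaller part of the H2087 bar (6.66 of 18.2), and DKK3 has no H596 bar because all its transcripts had 0 counts.

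Several ligand genes lie side by side. WNT9A and WNT3A are 59046 bases apart on chromosome 1, point away from each other, and were both higher in H596. WNT6 and WNT10A are 6300 bases apart on chromosome 2 on the same strand, yet WNT10A had an FPKM of 31.7 in H596 and WNT6 had 0.207. WNT10B and WNT1 are 6594 bases apart on chromosome 12, and WNT1 was near 0 in both libraries while WNT10B was not. Of WNT3 and WNT9B on chromosome 17, only WNT3 had any counts. Adjacent ligands therefore differed in level, and in no pair did both have a clear difference in opposite directions.

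The genes around the members were also compared, using the 20 nearest genes that passed the filter. For WNT7A on chromosome 3, 11 of the 20 were at least 2-fold higher in H596 and 0 were lower, with a median difference of 1.16. For WNT10B, 2 were higher and 11 lower, with a median of -1.11, and for LRP5, 0 were higher and 6 lower, with a median of -0.64. By calls, the neighbours also leaned the way of the gene itself for WNT7B (6 higher, 0 lower, median 0.17), WNT4 (6 higher, 1 lower, median 0.27) and FZD7 (1 higher, 6 lower, median -0.37). The other higher genes with a neighbour median above 0 were LGR4 (0.49), WNT3A (0.33), WNT9A (0.26) and LGR6 (0.15). Over all genes compared the median was already 0.12, with 18.2% higher and 14.2% lower. The part of the surroundings in these differences was not tested. For DKK3 the neighbours went the other way, with a median of 0.54. Over the 12 genes higher in H596 the neighbour median ranged from -0.19 to 1.16 and had the same sign in 7. Over the 5 lower genes it had the same sign in 3. WNT3A and WNT9A lie close together and share most of their neighbours, so they are not separate cases among the 7.

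Further genes of the pathway were taken from 7 lists, 69 genes in all, of which 48 passed the filter: 15 were at least 2-fold higher in H596, 7 were lower and 26 neither. Over all genes compared, 18.2% were higher and 14.2% lower, and the lists below are to be read against these shares. Here too some calls were fixed by the filter, with at most 0.333 FPKM in one library. They were those of GPC3, APCDD1, TCF7L1, VANGL2 and BAMBI, all higher in H596, and of RSPO4, lower. Counts that hold these genes therefore describe the listed genes only. The share of lower genes was close to that of all genes. The median difference was 0.35. Ligand secretion and modification genes were mostly even. PORCN, the enzyme that attaches the lipid to WNT ligands, had 5.99 FPKM in H2087 and 8.01 in H596, and WLS, which carries them to the surface, 65.4 and 48.5 FPKM. GPC3, a glypican that binds WNT at the surface, had 0.157 and 8.65 FPKM, a ratio of 55.0, and was the 1 of 4 compared that passed 2-fold.

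Of the other extracellular inhibitors 4 were compared, and 2 were higher and 1 lower in H596, too few to set against the shares of 18.2% and 14.2%. APCDD1, a membrane inhibitor that binds WNT and LRP5, had 0 counts in H2087 and an FPKM of 8.94 in H596, at least 366-fold higher there. The Kremen proteins, which are partners of DKK1, went opposite ways: KREMEN1 had 0.968 FPKM in H2087 and 4.16 in H596, and KREMEN2 2.05 and 0.349 FPKM. WIF1, SOST and CER1 had 0 counts in both.

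Of 14 signal transduction genes inside the cell, all compared, 2 were higher in H596, 3 lower and 9 neither, which is near the 18.2% and 14.2% of all genes. CTNNB1, which encodes beta-catenin, had 110 FPKM in H2087 and 87.7 in H596, a difference of -0.33. The kinase GSK3A had the widest difference, with an FPKM of 8.02 and 40.3. CSNK1A1 (189 and 89.4), DVL1 (58.5 and 28.0) and CSNK1E (23.2 and 10.8) lay just past 2-fold in the other direction, with differences of -1.08, -1.04 and -1.04.

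Among TCF/LEF factors and coactivators, 2 of 7 were higher in H596 and 1 was lower, against 18.2% and 14.2% of all genes. TCF7L1, mostly a repressor, had 0.0286 FPKM in H2087 and 5.18 in H596, a ratio of 181, and the corepressor TLE1 5.64 and 19.1 FPKM. TCF7L2, the main factor of gut epithelium, had 8.71 and 2.96 FPKM. TCF7 had 1.33 and 0.0637 and LEF1 had 0.0566 and 0.455, both with a mean FPKM under 1. The cell lines thus differed in which of the 4 TCF/LEF genes was highest: TCF7L2 in H2087 and TCF7L1 in H596.

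Of the beta-catenin targets, 9 of 16 were compared, with 4 higher in H596, 1 lower and 4 neither, against 18.2% higher and 14.2% lower of all genes, and a median difference of -0.34. BAMBI, a decoy receptor of TGF-beta signalling, had 0.0480 FPKM in H2087 and 13.7 in H596, a ratio of 286, and EPHB3 had 2.63 and 9.94 FPKM. APCDD1, given above, belongs to this list too. MYC went the other way, with an FPKM of 225 and 39.5, 5.69 times higher in H2087. Such genes also respond to other signals, and as a list they did not share a direction.

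**Figure D5:**
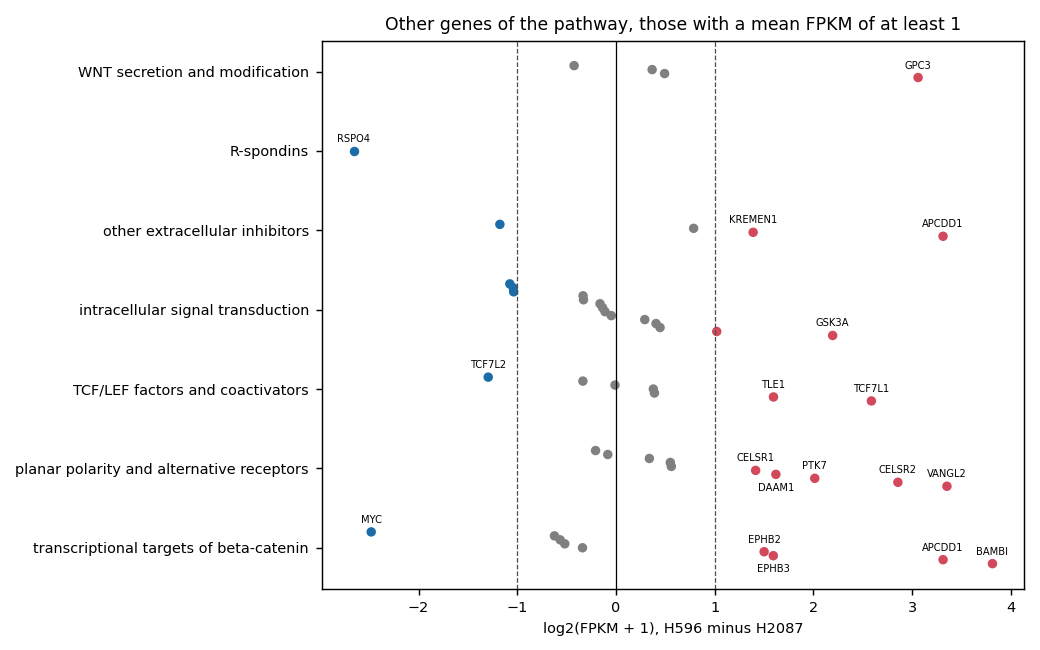
Difference in log2(FPKM + 1) (H596 minus H2087) for those genes of 7 further WNT pathway lists whose mean FPKM was 1 or more, 1 point per gene with a small vertical offset for legibility; dashed lines mark a difference of 1 in size, red points lie at or above it and blue points at or below -1. Planar polarity genes lie to the right or near 0. Of the 14 signal transduction genes, 9 lie between the dashed lines, 2 to the right of them and 3 to the left.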

How the data were processed

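RNA-seq of 1 untreated H2087 and 1 untreated H596 culture was processed. The authors isolated total RNA, made stranded mRNA libraries and sequenced them on a HiSeq4000. The submitters' processing notes name bcl2fastq 1.8.4, Trimmomatic, HISAT2 2.0.5 and StringTie 1.3.3b, with hg19 (GRCh37). As deposited, the estimated counts are whole numbers per gene and transcript. How they were made is not given in the sources used here. As the authors deposited them, FPKM values are scaled to transcript length and library size, and for the 46 genes the gene value equalled the sum over transcripts. Tables of 27685 genes and 63714 transcripts were read.

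With 1 library per line, no test was run. The difference was taken on log2(FPKM + 1), wherever the mean FPKM was 1 or more. A count of 0 was set to 3 counts for ratios. FPKM intervals are 95% Wilson intervals and ratio intervals are exact (Clopper-Pearson). The calculation was checked on simulated data. Sequences, strands and exons came from the GRCh37 genome with GENCODE release 44, and positions from the deposited tables. Alternatives were FPKM thresholds of 0.5 and 5, a pseudocount of 0.1, no filter or a mean FPKM of at least 5, TPM, TMM factors (edgeR 4.0.16, R 4.3.3), centring and the highest single transcript. Python 3.11.15, numpy 2.4.6, pandas 2.3.3, scipy 1.17.1 and matplotlib 3.10.9 were used.

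Those of the 46 genes that reached an FPKM of 1 in either library were named with both values, and the others by role. Of each further list, at most 4 genes past 2-fold were named, largest first, together with CTNNB1, LEF1, TCF7 and the R-spondins. PORCN, WLS, FRZB, WIF1, SOST, CER1 and ROR2 were named besides, after their values were seen. The genes and lists were chosen with earlier results of these data known. The study's ChIP-seq was not used here.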

Additional observations from a re-analysis of the deposited data

How the results depend on the processing

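All 12 genes higher and all 5 genes lower in H596 were also called under the pseudocount of 0.1, TPM, TMM factors, centring and the highest single transcript. No called difference changed sign under these. Of these 17 calls, 8 were fixed by the filter as deposited, so their agreement is little check on them. A smaller pseudocount can only widen a difference, so agreement under it was certain for all 17. Without the filter or in TPM, 6 genes were lower. With a mean FPKM of at least 5, fewer genes were compared, 8 higher and 3 lower. At an FPKM of at least 5, 7 genes were expressed in H2087 and 10 in H596. The median difference was 2.10 with a pseudocount of 0.1, 0 with no filter, 2.33 with a mean FPKM of at least 5, 0.77 in TPM (0.29 over all genes) and 1.78 after centring. Without the filter and in TPM more genes were compared, 46 and 26, most of the added ones low. Over all genes, 18.2% were higher and 14.2% lower as deposited, 15.6% and 16.4% with TMM factors, and 15.6% and 16.2% after centring, which took out the median of 0.12. The small differences of FZD5 and RNF43 changed sign. That of FZD5 went from 0.113 to -0.0034 under centring, which subtracted 0.117. That of RNF43 went from -0.38 to 0.14 with the highest single transcript, NM_017763, which leaves out NM_001305544 (1.53 FPKM in H2087 and 0 in H596). No paired analysis was possible because there was only 1 library of either line, so that leaving one out was not possible either. Depth limits the low genes: the ratio intervals of NKD1, FZD8 and FZD9 include 1.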

Other observations

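Planar polarity genes and alternative WNT receptors, which act without beta-catenin, formed the further list with the largest number of genes higher in H596. Of 13 genes 10 were compared, 5 were at least 2-fold higher in H596, 0 were lower and 5 were neither, with a median difference of 0.99. By share the list did not stand out from the other extracellular inhibitors, with 2 of 4 compared higher and a median of 1.09. VANGL2, a core polarity protein of the membrane, had 0.296 FPKM in H2087 and 12.2 in H596, a ratio of 41.3, and its call was fixed by the filter. CELSR2, a cadherin of the same pathway, had 0.811 and 12.1 FPKM, a ratio of 14.9. PTK7, a co-receptor without kinase activity, had 10.9 and 46.9 FPKM, and DAAM1, which links Dishevelled to the cytoskeleton, 4.99 and 17.4 FPKM. ROR2, a receptor of WNT5A, had 0 counts in both libraries. The background over all genes compared was 18.2% higher with a median difference of 0.12, and with 1 library per cell line these values carry no replicate check.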
